A study of Monodelphis domestica and Mus musculus with 26 samples.

Results

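The comparison concerns whole testes of the gray short-tailed opossum (Monodelphis domestica), a marsupial, at 3 months and at 2 months of age. It uses every bulk RNA library labelled with these ages, 4 of 3 months and 4 of 2 months, which are 8 of the 20 opossum bulk libraries and 8 of the 26 samples in the series. The testes were broken up with collagenase and trypsin before RNA was extracted, so each library holds RNA of germ cells and somatic cells together, and fewer cells of a type and less RNA per cell cannot be told apart. All 4 libraries of 3 months were made from polyA RNA. At 2 months only replicate 1 was made from polyA RNA, and replicates 2, 3 and 4 were made from RNA depleted of ribosomal RNA. The labels give no strain, genotype or treatment and do not say that replicates came from different animals. The p-values thus measure the spread between libraries, which may be technical. For the fit over all 20 opossum bulk libraries described below, that spread includes the libraries of the other ages, which are 1 month, 4 months and adult.

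Sperm form in the seminiferous tubules in a fixed order. Spermatogonia divide by mitosis, spermatocytes pair and recombine their chromosomes and pass the meiotic divisions, and the haploid spermatids then build an acrosome, grow a tail and replace their histones with transition proteins and protamines. Sertoli cells nurse the germ cells inside the tubules, while peritubular, Leydig, vascular and immune cells surround them. In a growing male the later stages appear in the tubules after the earlier ones, so a testis sampled before and after that time differs in the stages it holds.

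The unit throughout is TPM, a transcript level scaled to gene length and to the library's total. The depleted libraries carried between 36.1% and 47.0% of their TPM in small noncoding RNA genes, against 2.61% in the polyA library of 2 months and between 0.579% and 0.773% at 3 months, so the deposited TPM of all other genes reads low in the depleted libraries. Levels called rescaled below are TPM recomputed without those genes. Differences are 3 months minus 2 months on the log2(TPM + 1) scale, which understates the change of low genes. They come from limma fitted over all 20 opossum bulk libraries with a term for the preparation, the same at all ages. That term rests on the 2-month libraries and on the depleted adult library (replicate 2) set against the polyA adult ones. Without the polyA library of 2 months it rests on that adult library alone. The standard errors pool the spread within all ages. Their median was 0.541, against 0.330 from the 8 libraries of 2 and 3 months alone. A gene was called at an adjusted p under 0.05 and a difference of at least 1. Aligned sequence was 3.79 to 5.29 gigabases per library at 3 months and 4.52 to 7.12 at 2 months; the number of reads is not known.

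Of 17072 genes tested, 2953 rose (17.3%) and 1507 fell (8.83%), 26.1% in all. Among these, 2798 rose with all 4 libraries of 3 months above all 4 of 2 months (16.4% of genes tested), and 552 fell with all 4 below (3.23%). The same calls, with overlap judged on rescaled levels, gave 2534 higher and 1311 lower, and calls and overlap both from rescaled levels gave 2796 and 1279. The median difference over all genes was 0.35, and this is the value against which the lists below should be read. Most calls were lost without the polyA library of 2 months: 104 genes then rose and 13 fell, the median over all genes was 0.13, and the median standard error went from 0.541 to 0.772. The depleted libraries of 2 months alone against those of 3 months, where age and preparation cannot be told apart, gave 30.8% of genes higher and 3.24% lower. The share of calls that were higher was 66.2%, but 39.4% after quantile normalization, 51.8% from FPKM, 57.9% after rescaling without small noncoding, mitochondrial and the 20 most abundant genes, and 90.2% with no term for the preparation. Quantile normalization moved the median over all genes from 0.35 to -0.24. List medians were lower by unequal amounts on that scale, the axoneme list's from 3.36 to 2.74 and the immune list's from 1.55 to 1.24, and those of the spermatogonial and cell cycle lists turned negative (-0.31 and -0.29).

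The 4 libraries of 2 months were not alike. Across genes, replicates 2 and 3 correlated at 0.986 with each other and at 0.811 to 0.871 with the 3-month libraries, while replicates 1 and 4 correlated at 0.65 to 0.705 with them. The 3-month libraries correlated at 0.975 to 0.986 among themselves. Each of these correlations runs over genes, and genes do not stand for replicates. In most of the late germ cell genes below, replicates 2 and 3 stood between replicates 1 and 4 and the libraries of 3 months. Without replicates 2 and 3, 3647 genes rose and 1536 fell.

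Genes that define the tissue were present in all 8 libraries: DDX4 (a germ cell RNA helicase), SYCP1 (a protein of the synaptonemal complex), SOX9 (the Sertoli cell transcription factor) and STAR (which brings cholesterol into mitochondria for steroid synthesis) were each at a TPM of at least 10. No row of the deposited tables was named AMH, INSL3, CYP17A1, ACTA2, PECAM1 or HBA1, so these markers were not analysed here. Of 796 entries in the 24 gene lists, 424 matched a named gene.

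Most of the listed genes of meiotic control and of spermatids rose at 3 months. Over 8 lists that cover meiotic control, spermatid regulation, acrosome, chromatin condensation, tail, metabolism and motility, 98 of 131 distinct genes tested rose (74.8%, against 17.3% of all genes) and 2 fell (1.53%, against 8.83%), with a median difference of 3.29. The 2 that fell were GSTM3 and TMEM203, and at an unadjusted p under 0.05 the counts were 106 higher and 4 lower. A gene could pass the filter through the libraries of 1 age alone, and could then hardly change the other way. ODF1, SPACA1 and SPATA19, below 1 TPM in every library of 2 months, passed through those of 3 months. The same filter held for all genes, and the counts and medians are a description only. Without the polyA library of 2 months, the medians of these 8 lists ran from 1.17 to 2.77, against 0.13 over all genes. The members still called numbered 4 for spermatid regulation, 3 for chromatin condensation, 1 each for acrosome, sheath and metabolism, and 0 for the other 3. That fit called 117 of all 17072 genes.

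**Figure D1:**
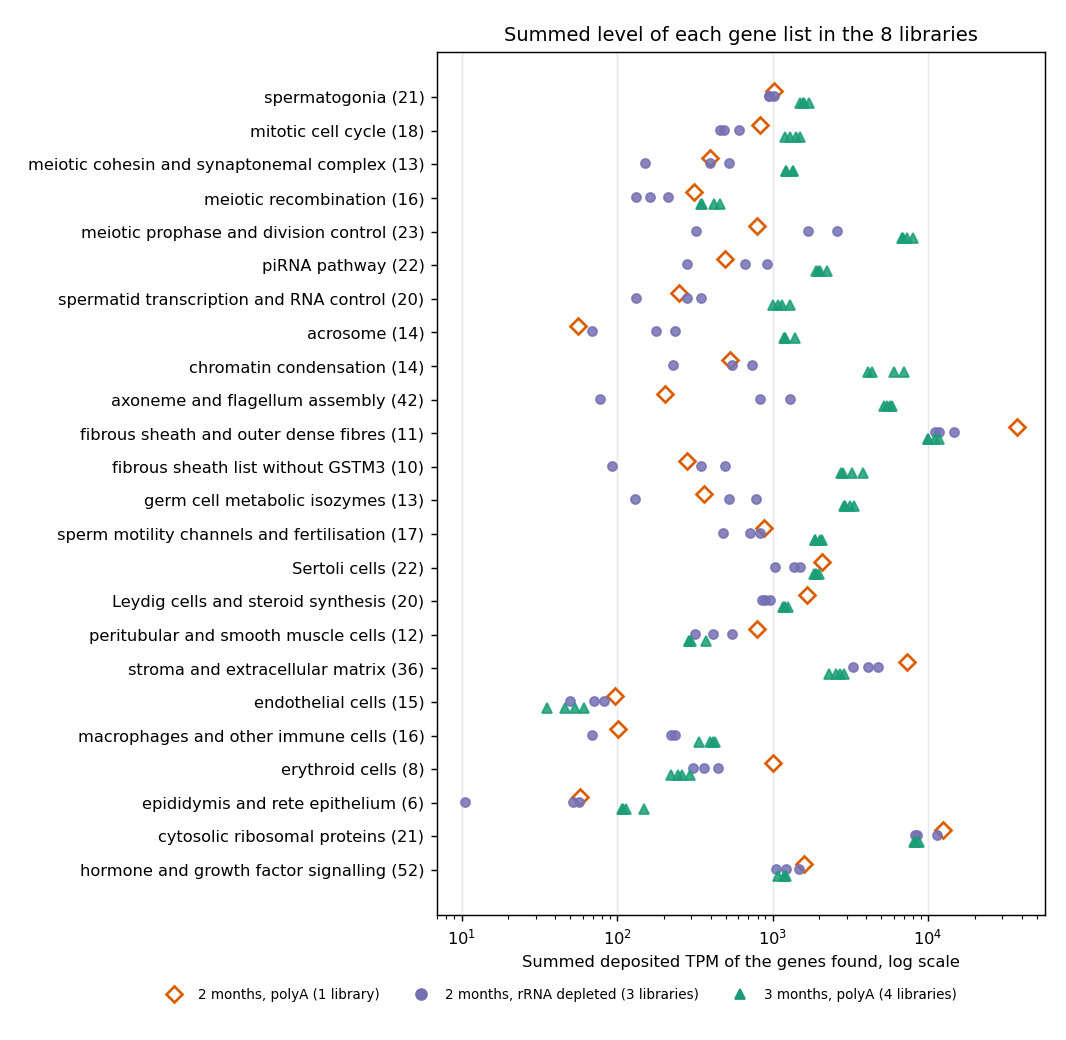
Summed deposited TPM of the genes found in each list (number of genes in brackets; log axis), 1 point per library, with the polyA library of 2 months as an open diamond, the 3 depleted libraries of 2 months as circles and the 4 libraries of 3 months as triangles. The axoneme list sums to 5185 to 5870 at 3 months and to 78.1 to 1297 at 2 months, whereas the stroma list lies lower at 3 months (2303 to 2883) than at 2 months (3301 to 7284).

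The list of controls of meiotic prophase and division, not split into early and late stages, is taken first. Of 34 symbols in this list 23 were found and 21 tested; 12 rose and 0 fell, with a median of 2.23. Their summed TPM was 792 in the polyA library of 2 months, 2591, 1701 and 323 in the depleted ones, and 6811 to 7948 at 3 months. MEIOC, which keeps germ cells in meiotic prophase, was at 10.6 TPM in the polyA library of 2 months, at 196, 131 and 25.3 in the depleted ones, and at 711, 593, 556 and 666 at 3 months. It rose by 4.25 (SE 1.25, limma adjusted p = 0.019), and no library of 2 months reached those of 3 months. Without the polyA library of 2 months its difference was 1.985 and was not called (limma adjusted p = 0.676). MYBL1, the transcription factor that directs gene expression in pachytene spermatocytes, stood at 3, 41.2, 30.9 and 6.31 TPM in replicates 1 to 4 of 2 months and at 116, 107, 99.1 and 104 at 3 months. It rose by 3.44 (SE 1.05, limma adjusted p = 0.0227), but by 1.49 without the polyA library of 2 months, where it was not called (limma adjusted p = 0.717). TCFL5, a helix-loop-helix factor of spermatocytes and spermatids, rose by 4.16 and SPATA16, a protein of the Golgi and the forming acrosome, by 4.03. CCNA1, the cyclin needed for male meiotic division, and HSPA2, the heat shock protein of spermatocytes, were among the other members that rose. YTHDC2 and RBM46, named after their values were seen, differed by 0.95 and 0.26 and were not called.

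Of 17 regulators of spermatids tested 11 rose, 0 fell and 6 were not called, with a median of 3.10 (20 of 34 symbols found). The testis-specific serine kinases act on proteins of the maturing spermatid, and TSSK2 and TSSK6 had the 2 highest differences of the list, while TSSK3 rose by 2.65, below the list's median. TSSK2 was listed at 0 in the polyA library of 2 months, at 3.19, 1.57 and 0.24 TPM in the depleted ones, and at 79.2, 93.5, 146 and 64.4 at 3 months. It rose by 5.70 (SE 0.70, limma adjusted p = 6.02e-05) and was still called without the polyA library of 2 months (adjusted p = 0.0387). TSSK6, a kinase required for histone replacement, went from 2.82, 1.65, 1.45 and 1.88 TPM at 2 months to 53.2, 107, 127 and 39.7 at 3 months. All 4 libraries of 2 months, of either preparation, lay below 3 TPM. It rose by 5.10 (SE 0.60), and by 6.32 without the polyA library. KLHL10, a ubiquitin ligase adaptor of spermatids, rose by 4.92. The factors RFX1 and RFX3, of the family that drives genes of cilia, rose by 3.33 and 3.51. RFX2, the member of that family known to be needed for spermatid tails, was at 14.5 TPM in the polyA library of 2 months, at 22.8, 19.1 and 8.75 in the depleted ones and at 42.4 to 50.8 at 3 months. Its groups did not overlap, but its difference of 1.39 missed the threshold (SE 0.53, limma adjusted p = 0.058). BRDT, the bromodomain protein of spermatocytes and spermatids, differed by 0.64 and was not called.

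**Figure D2:**
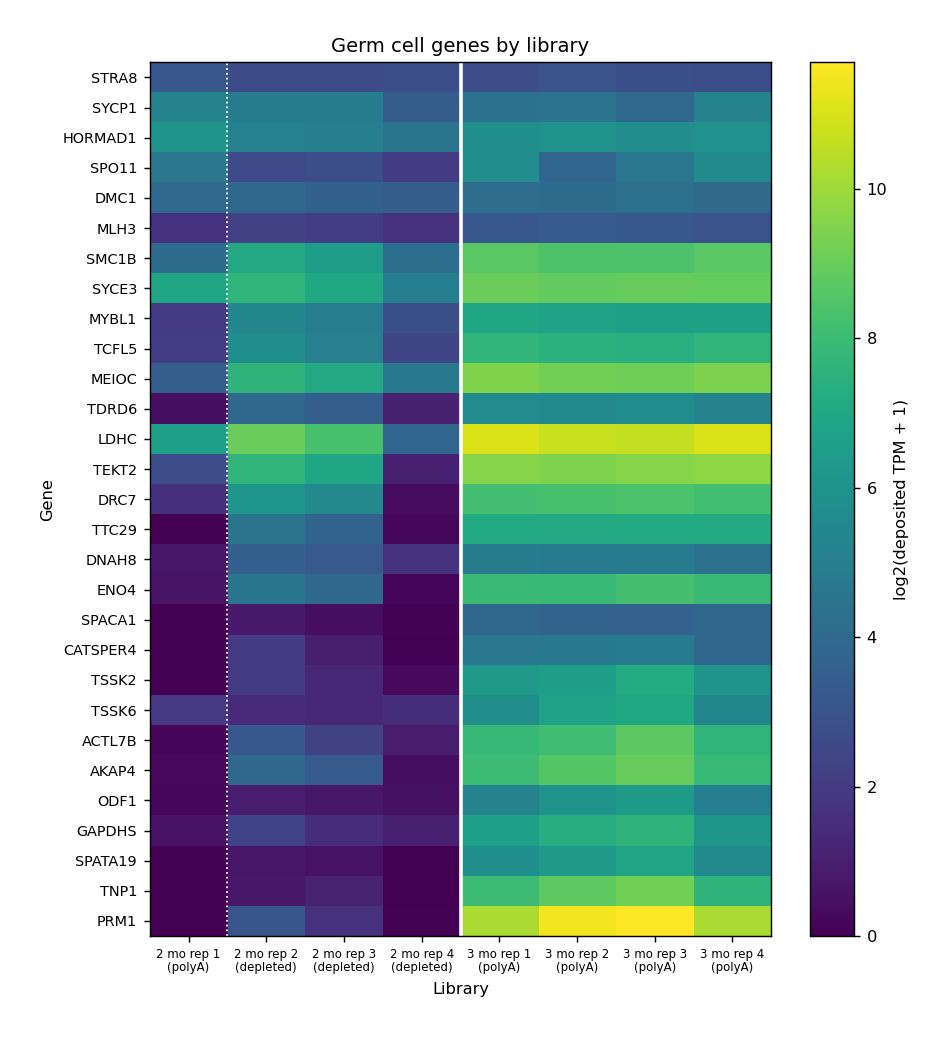
log2(deposited TPM + 1) of 29 germ cell genes (rows, from meiotic entry at the top to protamine at the bottom) in the 8 libraries (columns; the solid line parts the ages and the dotted line sets the polyA library of 2 months apart). Rows from MYBL1 down are lower in replicates 1 and 4 of 2 months than at 3 months, and intermediate in replicates 2 and 3 for genes such as TEKT2 (198 and 116 TPM). In the rows above, STRA8 and SYCP1 overlap between the ages on this deposited scale, while MLH3, SMC1B and SYCE3 are higher in every library of 3 months.

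The acrosome is the vesicle of enzymes and receptors that caps the sperm nucleus. Of its 12 members tested 9 rose and 0 fell, with a median of 3.64 (14 of 33 symbols found). SPACA1, a membrane protein needed to shape the acrosome, was listed at 0 in the polyA library of 2 months, at 0.812, 0.362 and 0.0324 TPM in the depleted ones and at 14.5, 12.3, 11.6 and 13.5 at 3 months. It rose by 3.24 (SE 0.58, limma adjusted p = 0.00132). The actin-like proteins ACTL7B and ACTL7A, of the cytoskeleton under the acrosome, rose by 6.72 and 5.51. SPACA9, listed at 0 in replicates 1 and 4 of 2 months and at 2.48 and 1.08 TPM in replicates 2 and 3, reached 60.2 to 132 TPM at 3 months. It rose by 5.79, and by 4.77 without the polyA library, where it remained called (adjusted p = 0.00506).

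The proteins that compact the sperm nucleus included the 2 highest differences among named genes called without overlap. Chromatin condensation had 13 members tested (14 of 32 symbols found), of which 7 rose and 1 fell, with a median of 1.43. PRM1, the protamine (ENSMODG00000005135, chromosome 6, 110070341 to 110070867), was listed at 0 in the polyA library of 2 months and stood at 7.63, 2.21 and 0.0389 TPM in the depleted ones. At 3 months it stood at 1179, 2846, 3304 and 1188 TPM. It rose by 9.58 (SE 0.78, limma adjusted p = 1.8e-06). In adults it ranged from 3582 to 17550 TPM over 7 libraries. TNP1, the transition protein that takes the place of histones before protamine (ENSMODG00000024866, chromosome 7, 176237474 to 176238373), was listed at 0 in replicates 1 and 4 of 2 months. It stood at 0.668 and 1.19 TPM in replicates 2 and 3, and at 254, 443, 583 and 191 at 3 months. It rose by 8.12 (SE 0.81, limma adjusted p = 6.11e-06). Both genes remained called without the polyA library of 2 months, at 7.60 and 7.73. SPATA19, a sperm mitochondrial protein placed in this list, rose by 5.55. Among the 3-month libraries replicates 2 and 3 were the highest in PRM1, TNP1 and SPATA19, with TNP1 at 443 and 583 TPM against 254 and 191 in replicates 1 and 4. The member that fell, TMEM203, a membrane protein of the endoplasmic reticulum, was at 300 TPM in the polyA library of 2 months, at 87.3, 92.2 and 95.5 in the depleted ones and at 57.9 to 68.9 at 3 months, a difference of -1.74.

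The axoneme is the core of the sperm tail and holds the microtubules, dynein arms and radial spokes. Of 72 symbols in its list 42 were found and 40 tested, and 37 rose, with 0 that fell and a median of 3.36. The 3 members not called, DNAAF4, RSPH9 and TTC21A, also had positive differences (1.52, 1.82 and 1.89). These 3 were named after their values were seen. TEKT2, a tektin filament protein, stood at 5.69 TPM in the polyA library of 2 months, at 198, 116 and 1.04 in the depleted ones and at 749, 699, 760 and 840 at 3 months. It rose by 5.50 (SE 1.41, limma adjusted p = 0.0101), and its 2-month libraries differed from each other by more than those of 3 months. TTC29 and DRC7, which serve dynein transport and the regulatory complex between dyneins, rose by 5.53 and 5.38. DNAH8, the dynein heavy chain of the outer arm in sperm, was at 0.629, 10.9, 8.61 and 2.31 TPM at 2 months and at 29.7, 27.2, 27.3 and 19.7 at 3 months, and rose by 3.64 (SE 0.83, limma adjusted p = 0.00548). Without the polyA library of 2 months the median of the axoneme list was 2.21 and no member was called, against 117 of all 17072 genes. Without replicates 2 and 3 all 40 members were called, against 5183 of all 17072 genes.

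Around the axoneme lie the outer dense fibres and the fibrous sheath, of which 11 members were tested; 9 rose and 1 fell, with a median of 3.97 (11 of 27 symbols found). AKAP4, the main protein of the sheath (ENSMODG00000011265, chromosome X, 73222715 to 73230119), was at 0.245 TPM in the polyA library of 2 months, at 14.7, 8.82 and 0.342 in the depleted ones, and at 259, 384, 508 and 233 at 3 months. It rose by 7.17 (SE 1.02, limma adjusted p = 0.000235). ODF1, the core protein of the dense fibres, was below 1 TPM in all 4 libraries of 2 months (0.175 to 0.881) and at 36.3, 61.7, 80.4 and 32.2 at 3 months, a rise of 5.39. CBY2 rose by 6.58, and OAZ3, the antizyme of spermatids, by 5.85. GSTM3, a glutathione transferase, was the member that fell, by 2.02. It stood at 37030 TPM in the polyA library of 2 months, at 11320, 14320 and 10970 in the depleted ones and at 6795 to 8985 at 3 months, and it makes up nearly all of the list's sum at 2 months. Without GSTM3 the list's sum was 282 in the polyA library of 2 months, 495, 346 and 93.2 in the depleted ones, and 2765 to 3818 at 3 months.

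Spermatids burn sugars with their own isozymes. Of 10 such members tested 7 rose and 0 fell, with a median of 2.93 (13 of 29 symbols found). LDHC, the lactate dehydrogenase of spermatocytes and sperm, stood at 95.5 TPM in the polyA library of 2 months, at 515, 308 and 13.2 in the depleted ones and at 2188, 1698, 1592 and 2141 at 3 months. Its rise of 3.30 had a wide error (SE 1.09, limma adjusted p = 0.0322). GAPDHS, the glyceraldehyde phosphate dehydrogenase tied to the sheath, went from 0.508, 4.08, 1.78 and 1.05 TPM at 2 months to 95.1, 154, 196 and 71.6 at 3 months. It rose by 6.14 (SE 0.74, limma adjusted p = 4.7e-05) and was called without the polyA library too (adjusted p = 0.0164). ENO4, the enolase of the sperm tail, rose by 5.96 and PGAM2, a phosphoglycerate mutase, by 3.78.

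Channels of sperm motility and proteins of fertilisation showed 12 of 15 members that rose and 0 that fell, with a median of 3.45 (17 of 45 symbols found). TMEM81, a sperm surface protein of egg binding, was listed at 0 in replicates 1 and 4 of 2 months and stood at 9.44 and 5.24 TPM in replicates 2 and 3; it was at 71.9 to 84.5 at 3 months and rose by 5.26. CATSPER4, a pore subunit of the sperm calcium channel, rose by 4.27, from 0, 3.24, 0.962 and 0 TPM to 24.4, 25.1, 26.6 and 13.7. SLC9C1, the sperm sodium and proton exchanger, rose by 4.37.

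STRA8 and the lists of chromosome pairing and recombination did not follow that pattern. Over the 2 lists of cohesin and synaptonemal complex and of recombination, 4 of 28 members tested rose (14.3%) and 3 fell (10.7%), with a median of -0.12. Both shares are near those of all genes (17.3% and 8.83%). From the depleted libraries of 2 months alone, 7 of the 13 pairing genes and 4 of the 15 recombination genes were higher and 0 of either lower, against 30.8% and 3.24% of all genes, and the medians of the 2 lists were 1.25 and 0.45. Without the polyA library of 2 months those medians were -0.85 and -0.55. STRA8, which starts meiosis in response to retinoic acid, was at 8.13 TPM in the polyA library of 2 months, at 5.51, 5.66 and 6.09 in the depleted ones and at 5.89, 7.12, 6.33 and 5.94 at 3 months. Its difference of -0.68 was not called (SE 0.35, limma adjusted p = 0.155). In rescaled levels STRA8 was at 8.35 to 11.5 at 2 months and at 5.93 to 7.17 at 3 months, which do not overlap. SYCP1 was at 36, 29.2, 29.7 and 10 TPM at 2 months and at 20.4, 21.1, 15.1 and 36.5 at 3 months, and its difference of -0.87 was not called (adjusted p = 0.207). For HORMAD1, SPO11 and DMC1 the term for the preparation was large beside the difference (depleted minus polyA, -1.73, -2.32 and -0.81), and the fitted difference did not follow the mean levels. HORMAD1, which marks unpaired chromosome axes, was at 64.9 TPM in the polyA library of 2 months, at 33.9, 31.6 and 22.2 in the depleted ones and at 52.3 to 60.8 at 3 months, and its fitted difference of -0.63 was not called (adjusted p = 0.163). SPO11, the enzyme that makes meiotic double-strand breaks, was at 23.7 TPM in the polyA library, at 5.02, 5.92 and 3.12 in the depleted ones and at 51.5, 13.1, 23 and 45.4 at 3 months, and differed by 0.16 (adjusted p = 0.908), but by 2.44 (adjusted p = 0.00412) from the depleted libraries of 2 months alone. DMC1, the meiotic strand exchange protein, was at 9.79 to 14.9 TPM at 2 months and at 15.2 to 19 at 3 months, all above those of 2 months. Its fitted difference was nonetheless -0.19 and was not called (adjusted p = 0.742), and in rescaled levels its groups overlap (15.3 to 22.2 and 15.3 to 19.1). MLH3, a crossover endonuclease subunit, was at 2.19 to 3.81 TPM at 2 months and at 6.91 to 9.4 at 3 months and differed by 1.05 (adjusted p = 0.0946).

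The pairing genes that rose were SMC1B, REC8, SUN1 and SYCE3. SMC1B, the meiotic cohesin subunit, stood at 16.8 TPM in the polyA library of 2 months, at 133, 92.4 and 17.6 in the depleted ones and at 412, 346, 344 and 420 at 3 months, a rise of 3.28 (SE 0.96, limma adjusted p = 0.0188). Without the polyA library of 2 months the difference of SMC1B was 1.58 and was not called (limma adjusted p = 0.664). SYCE3, a central element protein, rose by 1.91, and SUN1, which anchors telomeres to the nuclear envelope, by 1.72. TRIP13, REC114 and CCNB1IP1, which serve removal of axis proteins, break formation and crossover choice, fell by 1.38, 1.99 and 1.66. Each was highest in the polyA library of 2 months: TRIP13 was at 26.1 TPM there, at 6.59, 7.52 and 6.67 in the depleted libraries and at 6 to 9.76 at 3 months. In deposited TPM the depleted libraries of 2 months overlap those of 3 months for all 3 genes. In rescaled levels they do not: TRIP13 was then at 10.3 to 26.8 at 2 months and at 6.04 to 9.84 at 3 months. Set against the 3-month libraries with no term for the preparation, the depleted libraries gave differences of 0.14 for TRIP13 and 0.04 for REC114, neither called.

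The piRNA pathway makes the small RNAs that silence transposons in germ cells and that act on messages in spermatocytes. Of 22 members tested 7 rose and 3 fell, against 17.3% and 8.83% of all genes, with a median of 0.87 (22 of 27 symbols found). From the depleted libraries of 2 months alone 10 were higher and 0 lower (30.8% and 3.24% of all genes), so none of the 3 falls was called there, and without the polyA library the list's median was 0.08. TDRD6, a scaffold of the chromatoid body, stood at 0.403 TPM in the polyA library of 2 months, at 14.2, 10.5 and 1.09 in the depleted ones and at 49.4, 46.4, 49.7 and 37 at 3 months. It rose by 4.33 (SE 0.90, limma adjusted p = 0.00348). PLD6, the mitochondrial enzyme of piRNA processing, rose by 3.35; its groups overlap in rescaled levels. ADAD1, an RNA-binding protein of spermatids, rose by 3.84. PIWIL4, the PIWI protein of fetal and early germ cells, fell by 1.71, from 30.8 TPM in the polyA library of 2 months and 6.66, 5.48 and 14.6 in the depleted ones to 6.21 to 9.86 at 3 months, and its groups overlap in both scales. ASZ1 and EXD1, also of piRNA production, fell by 1.69 and 1.41. PIWIL1, the PIWI protein of pachytene spermatocytes, was at 26.2, 104, 65.2 and 13.6 TPM at 2 months and at 90.9 to 139 at 3 months. Its difference of 1.00 was not called (SE 0.87, limma adjusted p = 0.399), and it was -0.47 without the polyA library of 2 months.

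Of 17 spermatogonial genes tested 3 rose and 1 fell, with a median of 0.49 (21 of 32 symbols found), shares near those of all genes (17.3% and 8.83%). SALL4, a transcription factor of undifferentiated spermatogonia, rose by 1.82, and DDX4 and TDRD9, which later germ cells also express, by 1.76 and 1.73. LIN28B, an RNA-binding protein of early germ cells, fell by 1.15. KIT, the receptor of differentiating spermatogonia, stood at 15.6, 6.36, 6.07 and 13.9 TPM at 2 months and at 6.8 to 10.1 at 3 months and was not called (-1.13, limma adjusted p = 0.11). ZBTB16 and GFRA1, markers of undifferentiated spermatogonia, differed by 0.49 and 0.54 and were not called.

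Of 18 cell cycle genes tested (18 of 31 symbols found) 6 fell and 4 rose, against 8.83% and 17.3% of all genes, with a median of 0.23. Without the polyA library of 2 months the median was -0.20. Those that fell were MCM6, GINS2, MCM3, MCM2, PCNA and CDC6, which act in DNA replication, and those that rose were PLK1, KIF20A, BUB1 and TOP2A, which act around chromosome segregation. CDT1, which licenses replication (1.60), MCM7 of the replicative helicase (-0.30), and AURKB, CCNB1 and KIF11 of mitosis (0.19, 0.27 and 0.41) were not called. The members beyond the leading ones were named after their values were seen. From the depleted libraries of 2 months alone against those of 3 months, 7 members were higher and 0 lower, against 30.8% and 3.24% of all genes. MCM6, a subunit of the replicative helicase, stood at 117 TPM in the polyA library of 2 months, at 21.2, 24.9 and 55.6 in the depleted ones and at 23.2, 27.7, 22.9 and 21.2 at 3 months. It fell by 1.94 (SE 0.44, limma adjusted p = 0.00515). In rescaled levels its groups did not overlap (33.2 to 120 at 2 months, 21.4 to 27.9 at 3 months). GINS2 and MCM3 fell by 1.93 and 1.78. PLK1, the kinase of mitotic and meiotic entry, was at 0.814 TPM in the polyA library of 2 months, at 9.8, 6.44 and 3.13 in the depleted ones and at 25.4 to 26.4 at 3 months. It rose by 3.00 (SE 0.89, limma adjusted p = 0.0203).

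**Figure D3:**
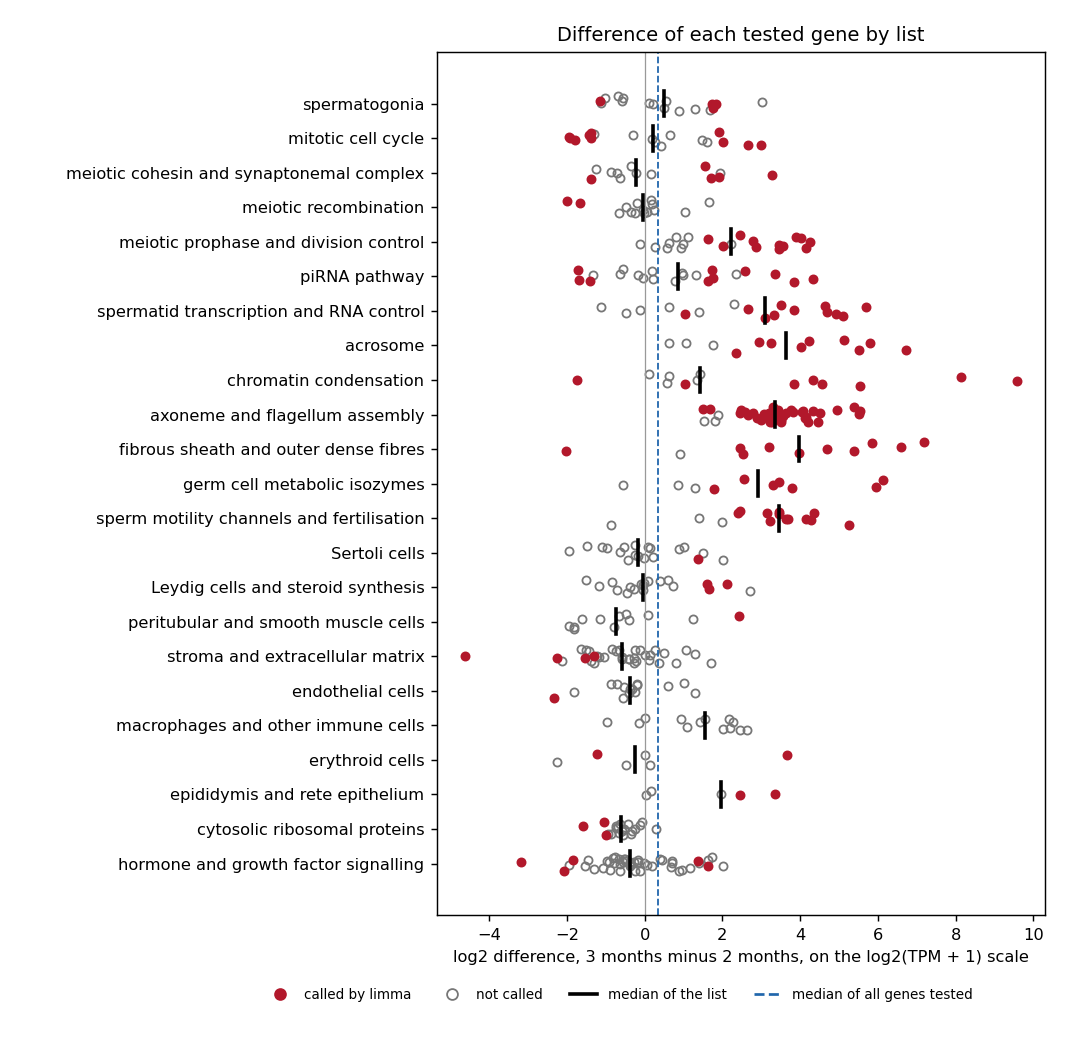
Difference of each tested gene (3 months minus 2 months on the log2(TPM + 1) scale) by list; filled points were called by limma, open ones were not, black bars are list medians and the dashed line is the median of all genes (0.35). The axoneme list has 37 called members to the right and 0 to the left, while the recombination, Sertoli and stroma lists centre near or below 0, with medians of -0.04, -0.16 and -0.59.

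Few somatic genes passed the test. Over the lists of Sertoli, Leydig, peritubular, stromal and endothelial cells, 5 of 97 distinct genes tested rose (5.15%) and 5 fell (5.15%), with a median of -0.38. At an unadjusted p under 0.05 the counts were 7 higher and 13 lower. The called shares were below those of all genes in both directions (17.3% and 8.83%). More members lay apart than were called. In rescaled levels 19 of 35 stromal, 7 of 19 Sertoli, 7 of 19 Leydig, 6 of 12 peritubular and 5 of 15 endothelial genes had all 4 libraries of 3 months below all 4 of 2 months. Among the 17617 genes tested on that scale 4123 did. All 4 lay above for 0, 2, 6, 1 and 0 genes of these lists in the same order, and for 4512 of all genes. In deposited TPM all 4 lay below for 9, 1, 0, 3 and 3 genes, and for 1415 of 17072.

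In the connective tissue of the testis, of 35 stromal and matrix genes tested (36 of 48 symbols found) 0 rose and 4 fell, against 17.3% and 8.83% of all genes, with a median of -0.59 that became 0.07 without the polyA library of 2 months. The list's rescaled sum was 6231 to 7559 at 2 months and 2319 to 2903 at 3 months. FBLN1, a glycoprotein of elastic fibres and basement membrane (ENSMODG00000007284, chromosome 8, 10664960 to 10738654), was at 75 TPM in the polyA library of 2 months and at 4.75, 5.83 and 18.6 in the depleted ones. At 3 months it was listed at 0, 0.673, 0.682 and 0.165 TPM. It fell by 4.63 (SE 0.59, limma adjusted p = 8.75e-05), and by 2.84 without the polyA library of 2 months, where it was the 1 stromal gene still called (adjusted p = 0.043). IGFBP3, which binds insulin-like growth factors, went from 109, 27.5, 34.8 and 38.5 TPM to 10.2, 19, 13.7 and 17.2, a fall of 2.25. SPARC, a matrix protein that binds collagen, fell by 1.54, from 2114 to 4915 TPM at 2 months to 1188 to 1782 at 3 months, and COL12A1, a collagen named after its values were seen, fell by 1.31. COL1A1, the chain of type I collagen, was at 119 TPM in the polyA library of 2 months, at 23.4, 45.4 and 53.8 in the depleted ones and at 8.57 to 17 at 3 months. Its groups did not overlap, but its difference of -1.44 was not called (SE 0.98, limma adjusted p = 0.277). Without the polyA library of 2 months the difference turned to 1.03 (adjusted p = 0.777), while the depleted libraries alone gave -1.49 (adjusted p = 0.00755). Within the depleted libraries of 2 months alone against those of 3 months, 7 stromal genes were called lower and 1 higher, against 3.24% and 30.8% of all genes.

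Sertoli cell genes had 1 member that rose among 19 tested and 0 that fell, against 17.3% and 8.83% of all genes. Their median was -0.16 (22 of 46 symbols found). SOX9 was at 123 TPM in the polyA library of 2 months, at 26.5, 35.3 and 31.9 in the depleted ones and at 17.1, 27.8, 26.8 and 22 at 3 months. Its difference of -1.49 was not called (SE 0.62, limma adjusted p = 0.0797), and it was -0.16 without the polyA library of 2 months (adjusted p = 0.958). INHA, the inhibin subunit that feeds back on the pituitary, was at 169, 21.7, 48.4 and 74.5 TPM at 2 months and at 11.6 to 23.4 at 3 months. Its difference of -1.95 missed the threshold (SE 0.78, limma adjusted p = 0.0696). It was -0.19 without the polyA library of 2 months (adjusted p = 0.963) and -1.17 from the depleted libraries alone (adjusted p = 0.0473). WT1, a defining Sertoli factor, differed by 0.13. The member that rose, KRT18, a keratin of immature Sertoli cells and of epithelia, was at 54.7 TPM in the polyA library of 2 months, at 21, 22.6 and 24.3 in the depleted ones and at 111 to 165 at 3 months, a rise of 1.38. It was not called without the polyA library of 2 months (1.60, adjusted p = 0.375).

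Of 19 genes of Leydig cells and steroid synthesis 3 rose and 0 fell, against 17.3% and 8.83% of all genes. The share that rose was thus near that of all genes. The median was -0.03 (20 of 34 symbols found), or 0.19 without the polyA library of 2 months. Those that rose included CYP19A1, the aromatase that turns androgens into oestrogens, and SQLE of cholesterol synthesis, which is not particular to Leydig cells. CYP19A1 was at 2.88 TPM in the polyA library of 2 months, at 9.03, 4.14 and 0.317 in the depleted ones and at 23.7 to 30.1 at 3 months, and rose by 2.12 (SE 0.66, limma adjusted p = 0.0242). SQLE rose by 1.66. STAR was at 629, 217, 244 and 481 TPM at 2 months and at 175 to 223 at 3 months; its difference of -1.18 was not called (SE 0.61, limma adjusted p = 0.154). CYP11A1, which makes pregnenolone from cholesterol, was at 288, 88.6, 109 and 71.2 TPM at 2 months and at 61.3 to 87.9 at 3 months, and its difference of -1.51 missed the threshold (adjusted p = 0.057). In rescaled levels all 4 libraries of 3 months lay below those of 2 months for both genes, STAR at 176 to 225 against 340 to 907.

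**Figure D4:**
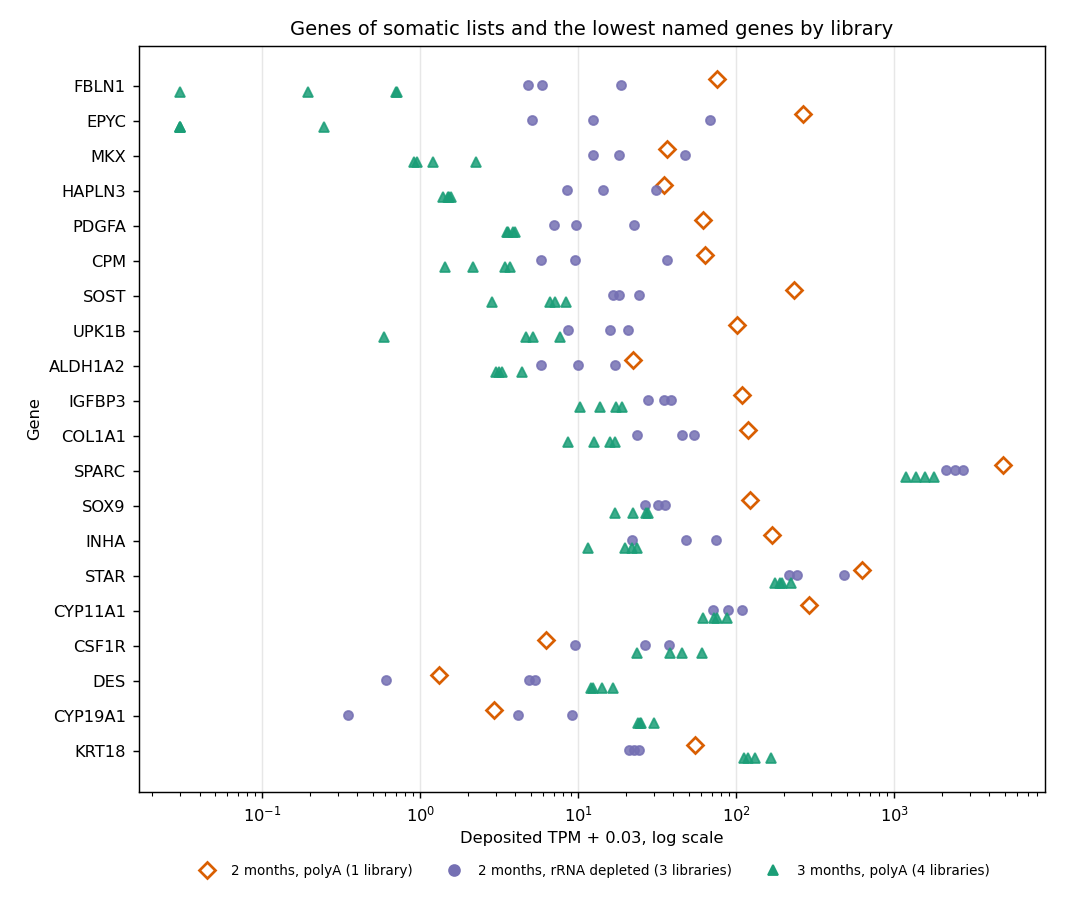
Deposited TPM + 0.03 (log axis) of 20 genes from the somatic lists and from the lowest named genes, 1 point per library, with symbols as in the plot of summed levels. FBLN1 and EPYC lie below 1 TPM in all 4 libraries of 3 months, SOX9 and CYP11A1 overlap between the ages in deposited TPM, and DES, CYP19A1 and KRT18 lie higher at 3 months.

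Peritubular and smooth muscle genes had 1 member that rose of 12 tested and 0 that fell, against 17.3% and 8.83% of all genes. Their median was -0.72 (12 of 18 symbols found). DES, the intermediate filament of muscle, rose by 2.42, from 1.29, 4.84, 5.27 and 0.578 TPM at 2 months to 12 to 16.5 at 3 months. TAGLN, ACTG2 and TPM1, of the contractile apparatus, had the lowest differences of the list (-1.94, -1.83 and -1.81). They were not called and were named after their values were seen. MYH11, a defining marker of the list, differed by -0.80, CNN1 by 0.10 and SYNPO2 by 1.23, none of them called. With DES, 3 of the 12 members had positive differences. In the endothelial list (15 tested of 23 symbols) 1 gene fell and 0 rose, against 8.83% and 17.3% of all genes, with a median of -0.39. ACKR3, a chemokine receptor, fell by 2.34. CDH5, a defining endothelial cadherin, differed by -0.53 and was not called.

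Marker lists of blood and of neighbouring tissue were also read, and their part in the results above was not tested. Among 13 genes of macrophages and other immune cells tested limma called 0, against 26.1% of all genes, with a median of 1.55. At an unadjusted p under 0.05, 4 were higher and 1 was lower. Their rescaled sum was 104 in the polyA library of 2 months, 348, 376 and 131 in the depleted ones and 340 to 428 at 3 months, so the groups overlap. CSF1R, the receptor of macrophage growth factor, was at 6.21, 26.5, 37.4 and 9.47 TPM at 2 months and at 23.6 to 60.8 at 3 months, and its difference of 2.19 was not called (adjusted p = 0.197). From the depleted libraries of 2 months alone, 6 immune genes were called higher, against 30.8% of all genes. Of 6 erythroid genes tested 1 rose and 1 fell, against 17.3% and 8.83% of all genes; ALAS2, of haem synthesis, fell by 1.23, and the list's sum was 308 to 1014 TPM at 2 months and 221 to 294 at 3 months. Of 5 genes of epididymis and rete epithelium tested 2 rose and 0 fell, against 17.3% and 8.83% of all genes. AQP9 rose by 3.34 and CDH16 by 2.46, while the defining marker PAX8 differed by 0.03. That list's sum was 10.5 to 57.4 TPM at 2 months and 108 to 148 at 3 months, and no row was named LCN8 or ADAM7.

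Of 20 ribosomal proteins tested 3 fell, against 8.83% of all genes (RPLP1 by 1.58, RPL11 by 1.03 and RPL8 by 1.00), with 0 that rose and a median of -0.62, and in rescaled levels 1 of them remained called. Their deposited sum was 8248 to 12379 TPM at 2 months and 8122 to 8750 at 3 months, which overlap, and the rescaled sum was 12711 to 21629 at 2 months and 8185 to 8812 at 3 months. In rescaled levels 15 of the 20 had all 4 libraries of 3 months below all 4 of 2 months, against 4123 of the 17617 genes tested on that scale. The depleted libraries of 2 months alone against those of 3 months gave 0 called and a median of -0.21. Over all genes they gave 30.8% higher, 3.24% lower and a median of 0.47.

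Of 46 genes of hormone and growth factor signalling tested (52 of 60 symbols found) 2 rose and 3 fell, against 26.1% called among all genes, with a median of -0.37. PDGFA, a growth factor for Leydig and peritubular precursors, was at 61.3 TPM in the polyA library of 2 months, at 6.95, 9.57 and 22.5 in the depleted ones and at 3.51 to 3.96 at 3 months. It fell by 3.17 (SE 0.54, limma adjusted p = 0.000993). ALDH1A2, which makes retinoic acid, went from 22.3, 5.79, 9.91 and 17.2 TPM to 2.99 to 4.34, a fall of 2.08. Among the genes that rose, WNT5A rose by 1.62 and FST, the activin-binding protein named after its values were seen, by 1.38. WNT5A was at 2.13 TPM in the polyA library of 2 months, at 11, 11.7 and 11.1 in the depleted ones and at 9.51 to 14.1 at 3 months, and without that polyA library its difference was 1.04 and was not called. In rescaled levels the depleted libraries (17.2, 18.7 and 21) all lay above those of 3 months (9.58 to 14.2).

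Beyond the lists, the 8 highest named genes called without overlap were PRM1, TNP1, ABHD16B, AKAP4, ALLC, ACTL7B, TMEM239 and CBY2. ABHD16B, a phospholipid hydrolase of the testis (ENSMODG00000023272, chromosome 1, 472961034 to 472962467), was listed at 0 in the polyA library of 2 months, at 0.301, 0.0416 and 0.0791 TPM in the depleted ones and at 163, 355, 497 and 137 at 3 months. It rose by 7.94 (SE 0.50, limma adjusted p = 1.29e-07) and by 7.90 without the polyA library of 2 months. ALLC, an allantoicase, rose by 6.73 and TMEM239, a membrane protein, by 6.60. In each of ABHD16B, ALLC and TMEM239, as in PRM1, the 3-month replicates 2 and 3 were above replicates 1 and 4.

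The 8 lowest were EPYC, FBLN1, CPM, MKX, SOST, UPK1B, HAPLN3 and DCTPP1. EPYC, a small leucine-rich proteoglycan of the matrix (ENSMODG00000009682, chromosome 8, 67201113 to 67235560), stood at 266 TPM in the polyA library of 2 months and at 5.07, 12.3 and 68.4 in the depleted ones, and was listed at 0 in all libraries of 3 months but replicate 3 (0.216). It fell by 6.38 (SE 0.84, limma adjusted p = 0.000116), and was at 666 to 1095 TPM at 1 month. Without the polyA library of 2 months the difference of EPYC was -3.95 and was not called (limma adjusted p = 0.0639). MKX, a homeobox factor of tendon and other connective tissue, went from 36.5, 12.3, 18.1 and 47.6 TPM to 0.886, 0.922, 2.21 and 1.17, a fall of 3.64. HAPLN3, which links hyaluronan to proteoglycans, fell by 3.34, CPM, a carboxypeptidase of cell membranes, by 3.89 and DCTPP1, which breaks down unwanted nucleotides, by 3.31. UPK1B, a tetraspanin of epithelia, fell by 3.45. SOST, the secreted sclerostin that restrains WNT signals, fell by 3.46. It was at 233 TPM in the polyA library of 2 months but at 16.5 to 24.1 in the depleted ones. At 3 months it was at 2.81 to 8.27. The difference of SOST was -0.997 without that polyA library and was not called (limma adjusted p = 0.79). MKX, HAPLN3, CPM, DCTPP1 and UPK1B also lost their calls in that fit (limma adjusted p = 0.106, 0.174, 0.197, 0.231 and 0.469). Of the 8 genes only FBLN1 was still called there (limma adjusted p = 0.043). Within replicates of 2 months, each of these 8 genes but SOST was lowest in replicates 2 and 3, the libraries with the higher levels of late germ cell genes. The 8 genes were selected for being lower at 3 months, and a link to the germ cell levels was not tested. Genes with an identifier and no name made up 7661 of those tested, of which 1687 rose and 573 fell, against 2953 and 1507 of all 17072.

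The sex chromosome was compared as a whole, because the X chromosome is known to be silenced in spermatocytes during male meiosis. X-linked genes held 3.33% of the TPM (small noncoding genes left out) in the polyA library of 2 months, 2.64%, 3.08% and 2.82% in the depleted ones, and 1.52%, 1.90%, 1.98% and 1.69% at 3 months. The share was 2.96% ± 0.301 (SD, n = 4) at 2 months and 1.77% ± 0.209 (SD, n = 4) at 3 months, and the groups did not overlap (exact permutation test, two-sided, p = 0.0286, the smallest that 4 against 4 allows). The permutation test takes no account of the preparation, so it cannot tell age from preparation. In the other libraries the share was 2.34% and 2.25% at 1 month, below every library of 2 months, 1.64% to 2.81% at 4 months and 2.18% to 3.65% in adults. With small noncoding genes kept in the total the difference was -0.37 percentage points and was not called (exact permutation p = 0.486). Of 504 X-linked genes tested 55 rose (10.9%) and 69 fell (13.7%), with a median of -0.06, against 17.5%, 8.66% and 0.37 for 16553 autosomal genes. AKAP4 was among the X-linked genes that rose.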

How the data were processed

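Bulk RNA sequencing of dissociated opossum testes was taken as deposited, from 20 libraries (16 polyA, 4 rRNA depleted). Per the submitters' processing notes the tools were HISAT2 2.2.1, SAMtools 1.12 and StringTie 2.1.4; the opossum build of the bulk tables is not given in the sources used here, and coordinates are those of the deposited tables. Per the file headers the authors' tables hold coverage (mean read depth per gene), FPKM and TPM. Deposited TPM was analysed; deposited FPKM served as an alternative, and the deposited coverage with FPKM gave the aligned bases per library. TPM keeps no read counts, so no count model was used.

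Of 34985 genes, 1903 small noncoding ones (by name, RefSeq biotype or a span under 200 bases) were left out. A gene was tested with a TPM of at least 1 in 2 or more of the 8 libraries. limma 3.58.1 (R 4.3.3, trend) was fitted to log2(TPM + 1) with age and preparation as terms and 14 residual degrees of freedom. Benjamini-Hochberg adjustment ran over all genes tested. The fit was also run on simulated data, where each gene had the same spread in every library. Those data did not hold the differences among the 2-month libraries, so the run cannot show how far the calls depend on them. Shares of X-linked TPM were compared by an exact permutation test (scipy 1.17.1; tables with pandas 2.3.3 and numpy 2.4.6). The lists were described by counts and medians, with no set test.

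The comparison, gene lists and named genes were chosen with earlier results of these data known. The text names 24 anchor genes that were tested (of 42; 18 matched no named gene), up to 3 called members of each list in the direction with more calls and 1 in the other, and the 8 highest and 8 lowest named genes called without overlap; members named beyond these were named after their values were seen, and a few that the rule selects are not reported here. A further list, replication-dependent histones, matched 0 named genes. Alternatives covered the pseudocount, filters, unit, scaling, preparation, weights, block and left-out libraries. Promoter motifs and sequences were not analysed here.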

Additional observations from a re-analysis of the deposited data

Results flagged for a closer look

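In 11 of 184 groups of 4 libraries, 1 library stood far from the other 3; chance alone gives about 1 such group in 20. The polyA library of 2 months was the one apart in 7 of them. It was high for TRIP13 (26.1 TPM, the others 6.59 to 7.52), CCNB1IP1 (21.6, the others 4.91 to 6.28), TMEM203 (300, the others 87.3 to 95.5), KRT18 (54.7, the others 21 to 24.3), ALAS2 (408, the others 164 to 186) and SOST (233, the others 16.5 to 24.1). It was low for WNT5A (2.13, the others 11 to 11.7). Replicate 4 of 2 months was low for SYCP1 (10, the others 29.2 to 36) and SUN1 (24.5, the others 51 to 55.5). Replicate 4 of 3 months was low for CATSPER4 (13.7, the others 24.4 to 26.6). EPYC was at 0.216 TPM in replicate 3 of 3 months and listed at 0 in the others.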

How the results depend on the processing

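The 26 alternatives included 3 chosen after seeing the data (both rescalings without small noncoding genes, and leaving out replicates 2 and 3 of 2 months). No named gene that was called changed direction except under 1 of them: the depleted libraries of 2 months against 3 months put TRIP13 at 0.14 and REC114 at 0.04, and there 5257 genes rose and 553 fell, 5208 of the former without overlap. Genes that fell numbered 2441 from FPKM, 2278 after rescaling without small noncoding, mitochondrial and the 20 most abundant genes, 3797 after quantile normalization and 480 with no preparation term. With no preparation term 4440 rose, 4317 of them without overlap. The 8 libraries alone gave 5909 higher, 2632 lower and 8541 in all, with 4632 and 899 without overlap, and array weights gave 1247, 797 and 2044, with 1231 and 271. Falls without overlap were 2014 from FPKM, 2005 after the rescaling without abundant genes, 2950 after quantile normalization, 1279 after rescaling without small noncoding genes and 1064 without replicates 2 and 3 of 2 months. With polyA libraries alone 2 months is 1 library, and the falls without overlap there (1375, or 1485 rescaled) are the same number as the falls called. The median over all genes was 0.46 with a pseudocount of 0.1 and with no preparation term, 0.04 with no filter, 0.00 from FPKM, 0.13 after the rescaling without abundant genes and with array weights, -0.24 after quantile normalization, 0.50 from the 8 libraries and from polyA libraries, and 0.47 from the depleted libraries and without replicates 2 and 3 of 2 months. Leaving out 1 library at a time gave 104 to 3198 higher, 13 to 1530 lower, 117 to 4728 in all, 103 to 3073 and 11 to 726 without overlap, and medians of 0.13 to 0.39; each lowest value came without replicate 1 of 2 months, and the next lowest count in all was 3523. In that fit 103 of the 2953 genes that rose and 6 of the 1507 that fell were still called, and of the 94 genes the naming rule selects 79 had been called, of which 66 lost the threshold and 13 kept it; the cause was not tested. The X-linked difference was -0.37 percentage points with small noncoding genes kept. It was -1.9 after rescaling without small noncoding, mitochondrial and the 20 most abundant genes, and -0.859 without the 2 most abundant X-linked genes. Leaving out 1 library at a time gave -1.07 to -1.30, where the exact permutation test of 3 against 4 gave its smallest possible p of 0.0571.

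The shared replicate numbers do not pair the libraries: deviations of same-numbered libraries correlated at -0.0694, -0.077, 0.0869 and -0.171. With the replicate number as a block, 2135 genes rose, 787 fell and 2922 were called in all, 286 of the falls without overlap. Levels under 1 TPM rest on few reads, whose number is not known.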
